A study of Rattus norvegicus with 15 samples.

Results

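Cytochrome P450 genes were followed in the olfactory mucosa of the rat through 79 array probes, chosen because the array annotation gives them a gene name that starts with Cyp and a digit. These 79 probes carried 66 gene names and were part of the 41012 probes of the array, and the choice went by name and not by level. Through their accessions 63 of them were matched to a current RefSeq symbol, which is used below, and the others keep the name of the array. The tissue came from 8 Brown Norway rats aged 6 weeks, of which 4 were males (rats 1, 2, 5 and 6) and 4 were females (rats 3, 4, 7 and 8). The olfactory epithelium of each nostril, called A and B in the labels, was hybridized to an array of its own, except that only nostril A of male 1 was measured, so that 15 arrays were available. The labels name nostrils by letter and give no side. Each of 2 suppliers, Elevage Janvier and Charles River, provided 2 males and 2 females, but the sample labels leave the supplier unnamed, so suppliers were not compared. Per the study, the sample lost to RNA quality was the left one of a male from Elevage Janvier, and male 1 is the rat without a second array. Several cell types share the dissected tissue, so fewer cells of a type and less RNA per cell cannot be told apart in these values.

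P450 enzymes are membrane-bound heme proteins that insert an oxygen atom into their substrates, with electrons supplied by P450 reductase (Por) in the endoplasmic reticulum or by ferredoxin in mitochondria. Members of families 1 to 3 act mainly on foreign compounds, family 4 on fatty acids, and most others on cholesterol, bile acids, steroid hormones and vitamins A and D. The nasal mucosa is known as a site of high P450 activity outside the liver, where the enzymes of sustentacular cells and Bowman's glands metabolize inhaled chemicals and odorants. In the rat liver several P450s are known to differ between males and females, which made sex the first comparison of interest here, followed by the difference between nostrils and the variation among rats of 1 sex.

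Values are log2 of the signal over the median signal of the array, so that 1 unit is a doubling, and values under 0.1 of the median were raised to that floor (-3.32). A probe was counted as expressed when its signal was well above background on at least 11 of the 15 arrays, as weakly expressed on 1 to 10, and as not expressed otherwise. The array medians lay between 57.4 and 83.4 intensity units, and 38 to 44 P450 probes were well above background on an array, none of them saturated. Probes bind with different strength, so the level of a probe is compared between samples and not with that of another probe. The arrays lay on 4 slides, of which slides 1 and 2 held rats 1 to 4 and slides 3 and 4 held rats 5 to 8, so no rat was measured on both pairs of slides. Males 5 and 6 shared slide 3, females 7 and 8 shared slide 4, and slide 1 alone held both sexes.

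The sequences of the Cyp2a and Cyp2b probes are shown first, because these genes lie side by side on chromosome 1 and resemble each other, so that the probe letters decide which of them is measured. Probe A_44_P111865 belongs to Cyp2a3, a nasal P450 named Cyp2a3a on the array. Probe A_42_P654578 belongs to Cyp2a1 and A_44_P356143 to Cyp2a2, both known as liver P450s. Capitals in the Cyp2a1 probe mark the 10 bases that differ from the Cyp2a3 probe within the 43 bases where they overlap. Capitals in the Cyp2a2 probe mark the 9 bases of 60 that differ from the Cyp2a1 probe.
Cyp2a3 (chr1:82026663-82028122 of rn3, + strand): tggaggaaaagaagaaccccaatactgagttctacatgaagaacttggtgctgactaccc
Cyp2a1 (chr1:82093167-82093226 of rn3, + strand): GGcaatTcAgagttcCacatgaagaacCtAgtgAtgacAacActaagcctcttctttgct
Cyp2a2 (chr1:82139063-82139122 of rn3, + strand): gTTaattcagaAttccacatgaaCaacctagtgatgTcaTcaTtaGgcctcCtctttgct

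Probes of the Cyp2b genes are shown in the same way. In the Cyp2b12 probe (named Cyp2b15 on the array) capitals mark the 5 bases that differ from the Cyp2b21 probe (named Cyp2b13 on the array) over 44 shared positions. In the Cyp2b2 probe capitals mark the 5 bases that differ from the Cyp2b12 probe over 29 shared positions. Each of them has at least 1 reading frame without a stop codon.
Cyp2b21, A_44_P149370 (chr1:81659612-81659671 of rn3, + strand): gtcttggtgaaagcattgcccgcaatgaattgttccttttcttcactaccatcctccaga
Cyp2b12, A_44_P316194 (chr1:81868958-81869017 of rn3, + strand): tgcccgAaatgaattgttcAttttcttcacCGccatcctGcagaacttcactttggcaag
Cyp2b2, A_44_P311323 (chr1:81437019-81437078 of rn3, + strand): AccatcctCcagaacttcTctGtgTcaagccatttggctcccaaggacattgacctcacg

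The probes that lead the comparison of the sexes and of the rats are shown next. The Cyp2g1 probe extends over 1932 bases and the Cyp1a2 probe over 622 bases of the genome, so the 60 bases of each come from more than 1 exon of the spliced transcript. Exon borders and untranslated regions were not analysed here. Of the Cyp26b1 probe the first 30 of its 60 bases are given, and none of its reading frames is free of stop codons.
Cyp2g1, A_44_P391192 (chr1:82002176-82004107 of rn3, + strand): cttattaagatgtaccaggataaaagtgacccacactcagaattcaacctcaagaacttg
Cyp1a2, A_44_P142025 (chr8:61463157-61463778 of rn3, - strand): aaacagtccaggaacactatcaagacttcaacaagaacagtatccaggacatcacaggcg
Cyp26b1, A_42_P693964 (chr4:118979795-118979854 of rn3, - strand): ttcattgtggtagcattaatgggtgatgta

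The P450 probes were detected selectively. By these limits 39 of 79 (49.37%) were expressed, 10 (12.66%) were weakly so and 30 (37.97%) were not, against 65.07%, 11.14% and 23.79% of all probes of the array. The expressed probes belonged to 30 of the 66 gene names, 10 further names had weakly expressed probes at best, and 26 had none detected. Almost every expressed probe was seen on all 15 arrays (37 of 39). By a laxer call, a positive and significant signal on at least 11 arrays, 48 probes were expressed, and the 9 added were Cyp17a1, Cyp2a2, Cyp2c13, Cyp2c37, a Cyp2c7 probe, Cyp2d3, Cyp2r1, Cyp4a1 and Cyp4a8.

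**Figure D1:**
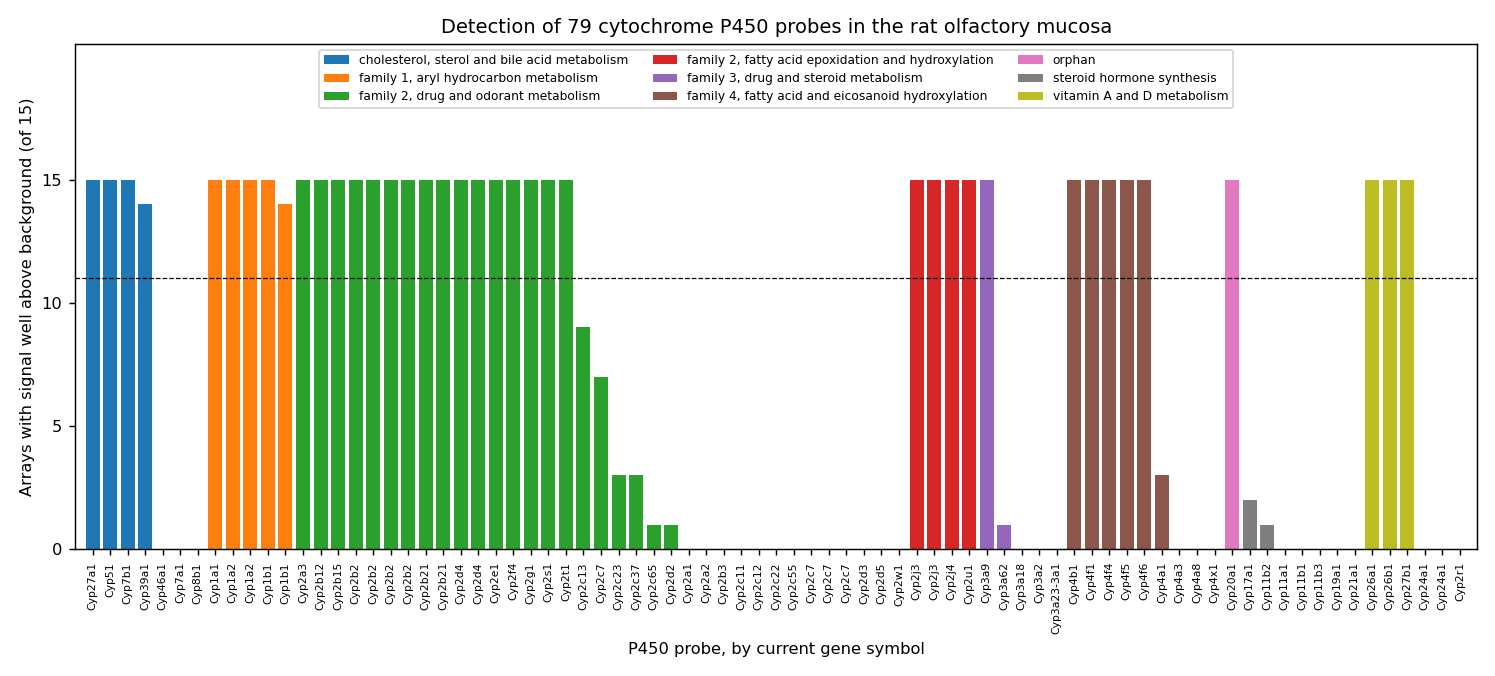
Number of arrays, of 15, on which each of the 79 P450 probes gave a signal well above background, with probes colored by the role of the enzyme and ordered by that number within a role; the dashed line marks 11 arrays. The probes fall into those seen on 14 or 15 arrays and those seen on 9 or fewer, and no probe of steroid hormone synthesis reaches the line.

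The family 1 enzymes, which oxidize aryl hydrocarbons and aromatic amines, were expressed by all 5 probes of 3 genes. Cyp1a2 was read by 2 probes at 6.54 ± 0.22 and 7.80 ± 0.07 (SD over rat means, n = 8). Cyp1a1 was read at -1.20 ± 0.17 (n = 8) by its only probe. The Cyp1b1 probes gave -1.83 ± 0.36 and -0.55 ± 0.32 (n = 8), below the array median. All these genes were therefore detected, Cyp1a2 well above the median of the array on each of the 15 arrays.

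In the drug and odorant part of family 2, 16 of 35 probes were expressed, for 10 of 26 names. The cluster on chromosome 1 was split. Cyp2a3 was read at 10.81 ± 0.13, Cyp2g1, a P450 known from the olfactory mucosa, at 9.05 ± 0.18, and Cyp2f4 (named Cyp2f2 on the array), known from Clara cells and nose, at 12.04 ± 0.09 (SD, n = 8 rats). Cyp2a1, Cyp2a2 and Cyp2b3, which lie between or beside them, were well above background on none of the 15 arrays. The Cyp2a3 probe read between 10.58 and 10.96 in all rats, while the probes of its close relatives shown above missed the call on every array, with a weaker but still significant positive signal on 6 arrays for Cyp2a1 and 12 for Cyp2a2.

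The other expressed genes of that group were Cyp2b2, Cyp2b12 and Cyp2b15 (which share the array name Cyp2b15), Cyp2b21, Cyp2d4, Cyp2e1, Cyp2s1 and Cyp2t1. Cyp2e1, known for ethanol and small solvents, was read at 4.68 ± 0.64 and Cyp2s1 at -0.04 ± 0.19 (n = 8). Cyp2t1 stood at 3.63 ± 0.13 and the Cyp2d4 probes (named Cyp2d22 on the array) at 1.44 ± 0.13 and 2.75 ± 0.17 (n = 8). No probe of the array carries the name Cyp2b1.

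Among the P450s that act on fatty acids, all 4 probes of Cyp2j3, Cyp2j4 and Cyp2u1 were expressed, with Cyp2j4 at 10.21 ± 0.09 and Cyp2u1 at -1.31 ± 0.23 (n = 8). In family 4, 5 of 9 probes were expressed. Cyp4b1, which hydroxylates short fatty acids and activates some lung toxicants, stood at 6.96 ± 0.31 and Cyp4f4 at 7.99 ± 0.11 (n = 8), whereas Cyp4a3, Cyp4a8 and Cyp4x1 were not detected, Cyp4a8 with a weaker significant signal on 13 arrays. Cyp20a1, an orphan without a known substrate, was at 4.92 ± 0.07 (n = 8).

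Of the 7 probes for cholesterol, sterol and bile acid metabolism 4 were expressed. Cyp51 (lanosterol demethylation in cholesterol synthesis), Cyp27a1 (sterol side chain), Cyp7b1 and Cyp39a1 (oxysterol hydroxylation) were read at 5.16 ± 0.14, 5.79 ± 0.05, -0.40 ± 0.23 and -1.43 ± 0.37 (SD, n = 8). Cyp7a1, the rate-limiting enzyme of bile acid synthesis, and Cyp8b1, both of the liver, and Cyp46a1 of the brain were well above background on none of the arrays. Of the 6 probes for vitamins A and D, those of Cyp26a1, Cyp26b1 and Cyp27b1 were expressed, while both probes of Cyp24a1 and that of Cyp2r1 were not, although Cyp2r1 gave a weaker significant signal on 14 arrays. Cyp26a1 and Cyp26b1 break down retinoic acid, and they stood at 2.75 ± 0.20 and 3.76 ± 0.43. Cyp27b1 makes active vitamin D and stood at -1.04 ± 0.29 (n = 8).

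None of the 7 probes for steroid hormone synthesis was expressed. Cyp11a1, Cyp11b1, Cyp11b3, Cyp19a1 (aromatase) and Cyp21a1 were not detected on any array, Cyp17a1 was detected on 2 arrays (on 12 by the laxer call) and Cyp11b2 on 1. Markers of steroidogenic cells were mostly absent too, with 6 of 9 probes never detected, Nr5a1 and Mc2r among them, although Star was expressed at -0.76 to -0.27 over the rats. Hepatocyte markers were not detected by 10 of 15 probes, including all 3 of albumin, while Serpina1 and Apoa1 were expressed. Of 11 probes for olfactory neuron markers 10 were expressed, Omp among them. The lowest signal called well above background lay between -2.96 and -2.08 on the 15 arrays, but the call also weighs the noise of the background, so a missed call sets no fixed upper level.

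The liver P450s with known sex dependence were looked at one by one. Of the male forms, Cyp2c11 (Cyp2c on the array), Cyp2a2, Cyp3a2 (Cyp3a11 on the array) and Cyp3a18 were detected in neither sex. Cyp2c13 was detected on 4 of 7 male and 5 of 8 female arrays, at -2.46 ± 0.43 in males and -2.48 ± 0.25 in females (SD, n = 4 rats each). Of the female forms, Cyp2c12 (Cyp2c40 on the array) and Cyp2a1 were detected in neither sex. A single probe of 4 for Cyp2c7 passed, on 2 male and 5 female arrays, at -2.78 ± 0.24 in males and -2.60 ± 0.16 in females. Cyp3a9 (Cyp3a13 on the array) was the exception, detected on all 15 arrays at 7.24 ± 0.16 in males and 7.31 ± 0.18 in females (n = 4 each). Its difference of 0.07 (SE 0.105) was smaller than the spread between rats and came to -0.03 after normexp background correction.

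Promoter windows of RefSeq build GRCr8, from 250 bases before to 50 after the start of each gene, were found for 28 of the P450 symbols with an expressed probe and for 25 others. The letters TATAAA, on either strand, stood in 5 of the 28 (17.9%) and in 11 of the 25 (44.0%), against 14.2% of all 33469 windows. Among the expressed genes with them were Cyp1a2, Cyp2a3 and Cyp2e1, and among the others Cyp2a1, Cyp2c11, Cyp2c12 and Cyp21a1. The retinoic acid response element of direct repeats of AGTTCA with 5 bases between, on either strand, was found in 3 of all windows (0.00896%). The only P450 window among them was that of Cyp26a1, shown here with the element in capitals, 92 to 76 bases before the start. The window of Cyp26b1, whose values differ most clearly among rats below, does not hold these letters.
Cyp26a1 (chr1:244883700-244883776 of GRCr8, + strand): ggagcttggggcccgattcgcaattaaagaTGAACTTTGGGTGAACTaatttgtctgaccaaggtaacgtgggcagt

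The sexes were compared on the means of each rat. No P450 probe of the 41 tested passed the 1% false discovery rate of limma with Benjamini-Hochberg adjustment, and none passed 5%, against 0.0434% of all 27625 probes at 1%. The methods' t-test also called none. At an unadjusted p under 0.05 there were 7 P450 probes (all higher in females), a share equal to the 17.1% of all probes. They were Cyp2g1, Cyp1a2, Cyp7b1, Cyp2b21, Cyp2e1, Cyp27b1 and Cyp4b1. Of the 41 tested probes 30 had a higher mean in females and their median difference was 0.06, beside 52.13% and 0.01 over all probes.

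**Figure D2:**
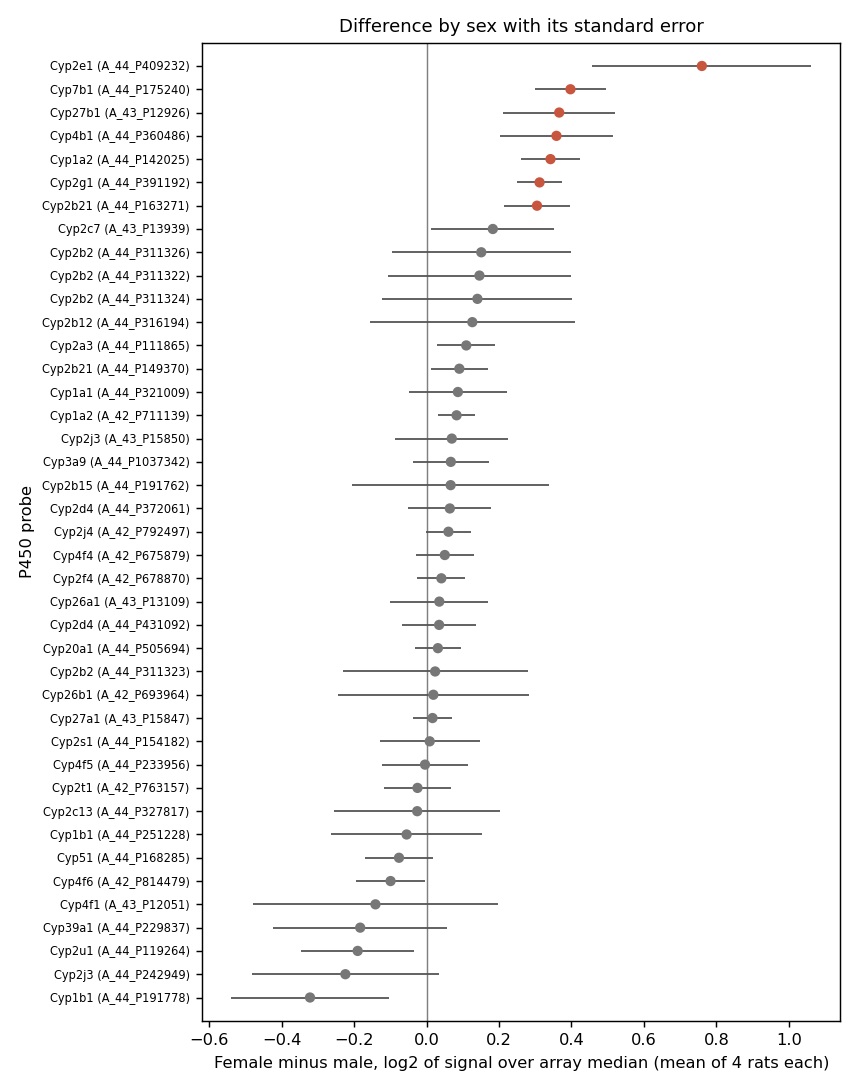
Female minus male difference of the 41 tested P450 probes on the log2 scale, with the standard error of the limma fit on 4 rats a sex; colored points have an unadjusted p under 0.05. The differences run from -0.32 for a Cyp1b1 probe to 0.76 for Cyp2e1, and the colored probes all lie on the female side.

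In 5 P450 probes the 4 females all lay above the 4 males, which 8.82% of all probes tested did, and in no P450 probe did the males all lie above, against 2.52% of all probes. These probes were those of Cyp2g1, Cyp7b1 and Cyp1a2 (both) and 1 of Cyp2b21. Cyp2g1 was read at 8.94, 8.85, 8.83 and 8.96 in males 1, 2, 5 and 6 and at 9.31, 9.26, 9.16 and 9.10 in females 3, 4, 7 and 8. The female mean was 0.31 higher (SE 0.06, 1.24-fold), with an adjusted p of 0.0982 in limma. With slide as a block the difference was 0.37 (adjusted p = 0.114). Only slide 1 holds both sexes, with 1 female array beside 3 male arrays, so each sex difference with slide as a block rests mainly on that female array and does not measure an effect of slide.

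Cyp7b1, which hydroxylates oxysterols and neurosteroids, was read at -0.67, -0.50, -0.67 and -0.57 in the males and at -0.17, -0.06, -0.32 and -0.27 in the females, in the order of rat numbers. The groups did not overlap, and the female mean was 0.40 higher (SE 0.10, 1.32-fold, adjusted p = 0.115 in limma), or 0.17 after normexp background correction. Cyp1a2 was read by A_44_P142025 at 6.49, 6.48, 6.26 and 6.24 in males and 6.66, 6.87, 6.66 and 6.64 in females. The difference of 0.34 (SE 0.08, adjusted p = 0.111) was 0.04 with slide as a block, and the other Cyp1a2 probe differed by 0.08 (SE 0.05, adjusted p = 0.433). The Cyp1a2 probes thus gave unequal differences for 1 gene.

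Cyp2e1 had the largest difference by sex among the tested P450 probes and also the widest range over rats. It was read at 3.94, 4.70, 4.24 and 4.31 in males and at 5.84, 5.42, 4.43 and 4.53 in females. Females 3 and 4 stood apart, while females 7 and 8 lay among the males, so the groups overlapped. The difference was 0.76 (SE 0.30, 1.69-fold) with an adjusted p of 0.242 in limma, and 0.50 without female 3. On slide 1, the only slide with both sexes, the array of female 3 read 5.43 and the male arrays 3.94, 4.79 and 4.60.

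**Figure D3:**
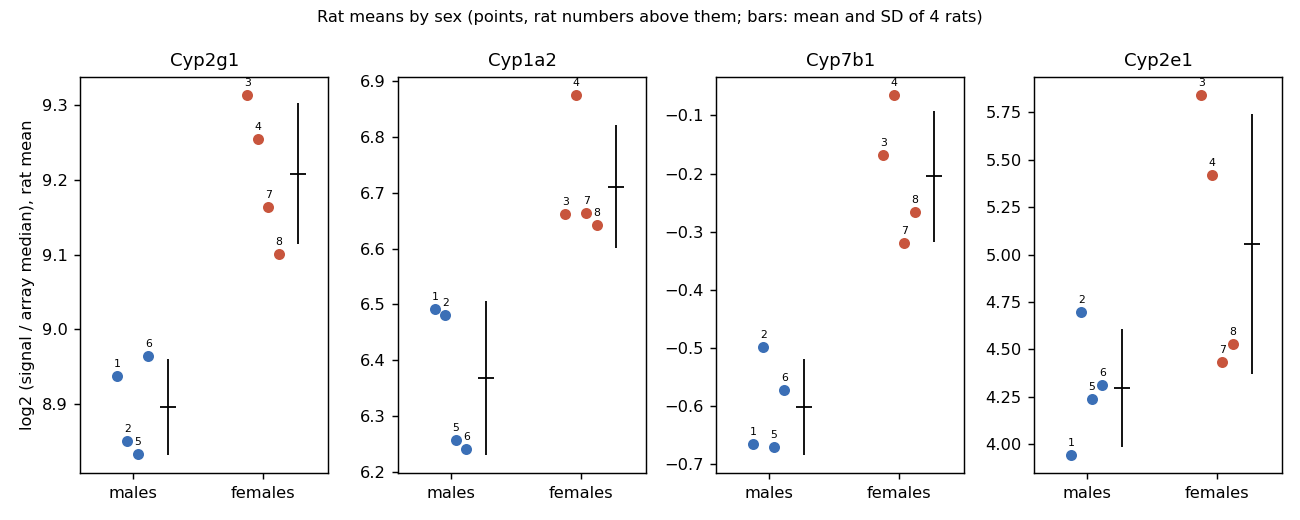
Rat means of Cyp2g1, Cyp1a2 (A_44_P142025), Cyp7b1 and Cyp2e1 on the log2 scale, each point a rat with its number, with the mean and SD of 4 rats beside them; each panel has its own vertical scale. Females lie above all males for Cyp2g1, Cyp1a2 and Cyp7b1, and females 7 and 8 lie among the males for Cyp2e1.

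Cyp2b21 was read by A_44_P163271 at 4.53 ± 0.14 in males and 4.84 ± 0.14 in females, a difference of 0.30 (SE 0.09, adjusted p = 0.155) that came to 0.19 with slide as a block. Its other probe differed by 0.09 (SE 0.08, adjusted p = 0.584). Cyp4b1 stood at 6.78 ± 0.35 and 7.14 ± 0.14 (difference 0.36, SE 0.15, adjusted p = 0.279), and the difference was 0.77 with slide as a block (adjusted p = 0.0699) and 0.20 without male 1. Cyp27b1 stood at -1.22 ± 0.26 and -0.86 ± 0.17 (difference 0.37, SE 0.15, adjusted p = 0.270), and its difference was 0.11 after normexp background correction and -0.14 with slide as a block, where the single female array of slide 1 decides the sign. None of these differences passed the test in the fit on rat means.

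Marker lists of other cells were set beside the sexes in the same samples. The mean of 7 sustentacular markers other than P450s lay between 5.71 and 5.96 in males and between 6.00 and 6.10 in females, without overlap. Differences were 0.43 for Ugt2a1, 0.11 for Sult1c1 and 0.05 for Sec14l3. Sult1c2 averaged -2.20 in males and -1.61 in females, and Hes1 2.38 and 2.84. Of the 7, 3 had an unadjusted p under 0.05, all higher in females. The gap between male 6 and female 8 rests on the dim Sult1c2 probe (detected on 12 arrays), at -1.90 and -1.37 in them. The mean of 4 ciliated cell probes lay between 4.17 and 4.33 in males and 4.39 and 4.57 in females, which rested on 1 Ccdc39 probe. Without it, an alternative chosen after seeing the data, the means overlapped, at 5.07 to 5.33 and 5.19 to 5.31. The mean of 3 blood probes (Hbb, Alas2 and Slc4a1) lay between 5.34 and 7.91 in males and between 4.03 and 7.07 in females. The 10 olfactory neuron probes tested averaged 6.35 to 6.54 in males and 6.42 to 6.68 in females. Of them 4 had an unadjusted p under 0.05, against 17.1% of all probes. These 4 were all higher in females (Ric8b by 0.37, Gnal by 0.27 and 0.19, and Stoml3 by 0.15). The remaining Gnal probe averaged 8.70 ± 0.12 in males and 8.78 ± 0.21 in females, and Omp differed by -0.01. The 5 Bowman's gland probes tested averaged 1.55 to 3.42 in males and 3.29 to 4.43 in females, through the 2 probes of Obp1f, an odorant-binding protein of nasal glands (differences 2.65, SE 0.97, and 2.57, SE 0.96), while Aqp5 differed by -0.03 (SE 0.05). The 6 macrophage probes averaged 4.75 to 5.24 in males and 4.78 to 4.84 in females, with C1qa at a difference of -0.26 (SE 0.10) by 1 of its probes and Lyz at -0.34 (SE 0.13). None of these marker probes passed the 1% rate by sex, and their part in the P450 differences was not tested.

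Rats of 1 sex were compared by an F test over the arrays, with the difference between the nostrils of a rat as the error. A single P450 probe of 40 passed the 1% rate (2.5%), near the 2.79% of all 27574 probes, and 11 passed 5% (27.5%), against 16.1% of all. At an unadjusted p under 0.05 there were 20 of 40, against 37.1%. The probe at 1% was Cyp26b1, with an F of 49.7 and an adjusted p of 0.000395 in limma. Those at 5% were Cyp26b1, all 6 probes named Cyp2b2 or Cyp2b15 on the array, Cyp2a3, Cyp2e1, Cyp4f6 and a Cyp2d4 probe.

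Cyp26b1 was read at 4.21 in male 1, 4.15 in male 2, 3.53 in male 5 and 3.10 in male 6. In the females it was read at 3.97 in rat 3, 4.19 in rat 4, 3.52 in rat 7 and 3.39 in rat 8. Nostrils of a rat differed by 0.01 to 0.17, a within-rat SD of 0.09, while the rat means spanned 1.11 (2.16-fold). The arrays of slides 1 and 2 read between 3.92 and 4.26 and those of slides 3 and 4 between 3.01 and 3.60, without overlap, and rats 1 to 4 were 1.68-fold higher on average.

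That order followed the slides, so rats, slide pairs and any difference in supplier cannot be told apart in it. Fitted with slide as a block, which compares only rats that share a slide, Cyp26b1 had an F of 7.72 (adjusted p = 0.178 in limma), and no P450 probe passed. Among rats of slides 3 and 4 alone it had an F of 12.9 (adjusted p = 0.228 in limma), with male 6 lowest, and among those of slides 1 and 2 alone an F of 3.34 (adjusted p = 0.585). With slide as a block 8 P450 probes of 40 had an unadjusted p under 0.05, against 17.1% of all. Cyp26b1 also passed 1% with each rat left out in turn and missed it after normexp background correction (adjusted p = 0.168 in limma).

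The Cyp2b2, Cyp2b12 and Cyp2b15 probes went the other way. Probe A_44_P311324 of Cyp2b2 was read at 2.83, 2.76, 3.54 and 3.98 in males 1, 2, 5 and 6 and at 3.20, 3.17, 3.66 and 3.66 in females 3, 4, 7 and 8. Its F was 12.8, with an adjusted p of 0.0103 in limma, and the other 5 probes had adjusted p from 0.0109 to 0.0269. All 6 probes had their highest rat mean in male 6 and their lowest in male 1 or 2, and spanned 1.11 to 1.28 over the rats. Rats 5 to 8 were 1.60- to 1.74-fold higher than rats 1 to 4 on average.

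In 4 of these 6 probes and in Cyp4f6 the arrays of slides 3 and 4 all lay above those of slides 1 and 2, which held for 5 of 40 P450 probes and 1.3% of all. The reverse held for Cyp26b1 alone among the P450 probes and for 1.48% of all probes. Cyp4f6 barely separated, with 4.6893 as the highest array of slides 1 and 2 and 4.6898 as the lowest of slides 3 and 4. The 6 probes are not 6 genes, since 4 of them carry the name Cyp2b2, and those 4 and the Cyp2b15 probe matched no current RefSeq accession, so which Cyp2b gene they read is uncertain. An RNA of 1 gene may bind the probe of another where their letters agree. With slide as a block their unadjusted p lay between 0.213 and 0.527. Without male 5 the probes of Cyp2b2 (A_44_P311324) and Cyp2b12 also passed 1%, which made 3 P450 probes, and without female 3 Cyp4f6 did, which made 2.

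The probes of Cyp2b21 from the same cluster were read over a narrower range. Both carry 1 current symbol, but the array places A_44_P149370 at chr1:81659612 (+ strand) and A_44_P163271 at chr1:81748936 (- strand). Whether both read 1 gene is therefore uncertain. A_44_P149370 spanned 0.34 over the rats, at 6.70 ± 0.15 in males and 6.79 ± 0.06 in females (n = 4 each). A_44_P163271 spanned 0.65. Rats 5 to 8 minus rats 1 to 4 came to 0.04 and -0.20 for these probes, against 0.68 to 0.80 for the 6 others. No test of this difference between probes was run.

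**Figure D4:**
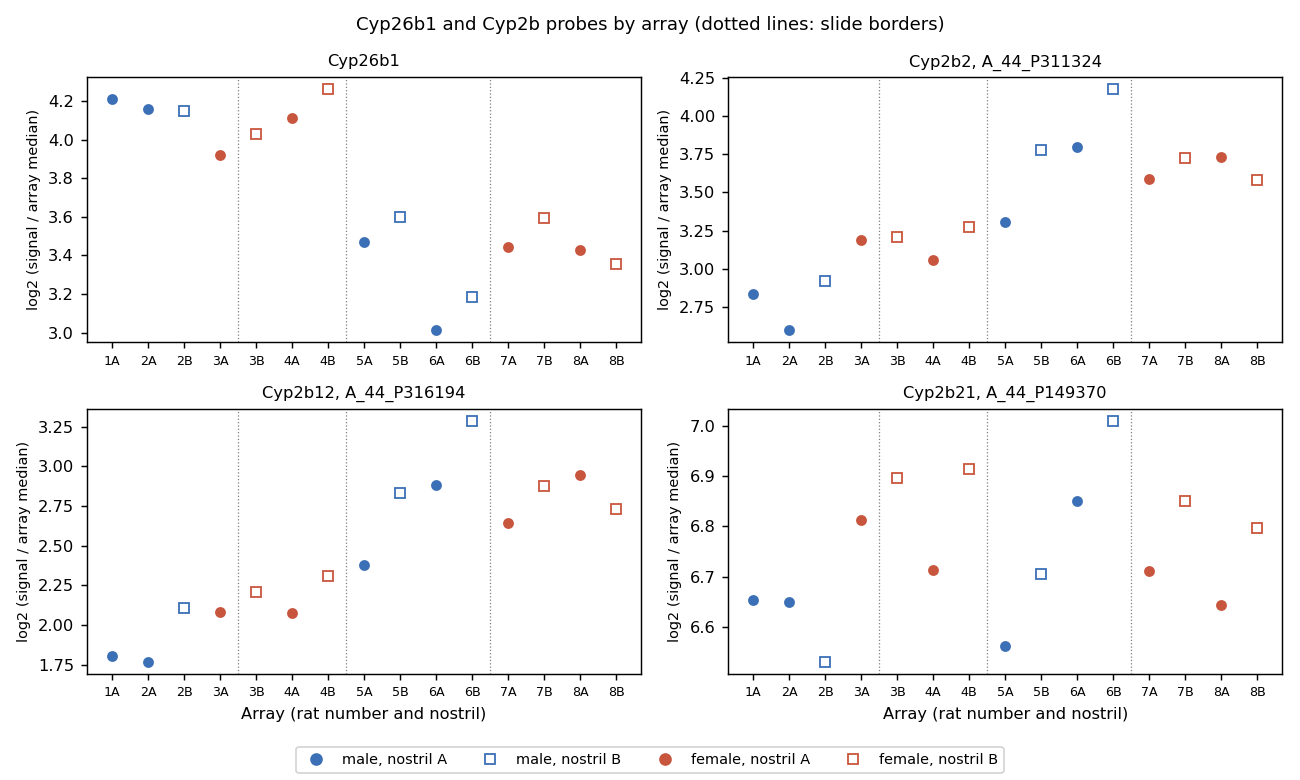
Log2 signal over array median of Cyp26b1 and of 3 Cyp2b probes on each of the 15 arrays, named by rat number and nostril, with dotted lines between slides and a vertical scale for each panel. Cyp26b1 is high on slides 1 and 2 and low on slides 3 and 4, the Cyp2b2 and Cyp2b12 probes are low and then high, and the Cyp2b21 probe shows no such step.

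Cyp2a3 differed among rats at 5% (F = 8.31, adjusted p = 0.0241 in limma) although its range was narrow, since the nostrils of a rat agreed within an SD of 0.06. It was read at 10.74, 10.58, 10.74 and 10.96 in the males and 10.94, 10.84, 10.93 and 10.76 in the females. Cyp2e1 had an F of 7.86 (adjusted p = 0.0269), with females 3 and 4 highest. Cyp4f6, which hydroxylates fatty acids and leukotriene B4, ranged from 4.57 to 4.96 (F = 7.76, adjusted p = 0.0275). The Cyp2d4 probe A_44_P372061 ranged from 2.40 in male 1, measured by a single array, to 2.93 in female 3 (F = 6.07, adjusted p = 0.0435). Its other probe, A_44_P431092, had an F of 1.12 (adjusted p = 0.513 in limma). After normexp background correction Cyp2b12 alone of the 11 probes passed 5% (F = 8.28, adjusted p = 0.0362 in limma).

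Markers were set beside these rats as well. The blood probes averaged 4.17 to 7.07 in rats 1 to 4 and 4.03 to 7.91 in rats 5 to 8, with male 6 highest and the pairs of slides overlapping. The sustentacular markers averaged 5.71 to 6.10 and 5.78 to 6.08, and the olfactory neuron markers 6.35 to 6.68 and 6.42 to 6.63 in the same order. These 3 lists overlapped between rats 1 to 4 and rats 5 to 8. The 3 skeletal muscle probes tested (Mb, Actn3 and Tnnt3) did not overlap, with means of -0.51 to -0.08 in rats 1 to 4 and -0.02 to 1.20 in rats 5 to 8, and the 4 bone probes averaged 4.48 to 5.33 and 5.19 to 6.05. The part of muscle and bone in the step of Cyp26b1 and the Cyp2b2 probes was not tested. Over 41 P450 probes the range across the 8 rats had a median of 0.61, beside 0.47 over all probes tested.

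The nostrils were compared within rats, with rat as a block. No P450 probe of 40 passed the 1% or the 5% rate, and no probe of the array passed 1% (0%). At an unadjusted p under 0.05 there were 12 P450 probes, against 5.89% of all 27574 probes, with 9 lower and 3 higher in nostril A. Of the 12, 7 were Cyp2b probes, 3 of them named Cyp2b2 and 2 of them Cyp2b21, so they are fewer genes than probes. Cyp51 had the smallest p, with nostril A lower by a difference of -0.13 (SE 0.04, adjusted p = 0.781 in limma). It was followed by Cyp2c7 at 0.55 (SE 0.18), Cyp2b12 at -0.23 (SE 0.07), Cyp2b2 at -0.20 (SE 0.07) and Cyp2b21 at -0.11 (SE 0.04), all with an adjusted p of 0.781. After normexp background correction these differences shrank, to -0.01 for Cyp51, 0.03 for Cyp2c7, -0.11 for Cyp2b12 and -0.09 for Cyp2b2, and that of Cyp2b21 changed sign to 0.02, beside a median over all probes of 0.05 there and -0.01 without it. Among cell markers 4 of 6 macrophage probes had an unadjusted p under 0.05 by nostril, all higher in A (list median 0.21, C1qa, Csf1r, Cd68 and Aif1). At that p 1 of 7 sustentacular and 1 of 4 ciliated cell probes were lower in A. For skeletal muscle 1 of 3 probes was higher in A (list median 0.49), and for olfactory neurons 0 of 10 probes reached that p. Both probes of Obp1f were lower in A at an unadjusted p under 0.05, by differences of -1.67 (SE 0.62) and -1.81 (SE 0.56), and none of these marker probes passed 1%. Their part in the P450 differences was not tested.

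The difference between nostrils was also compared between the sexes, by an interaction term that no P450 probe and no probe of the array passed at 1% (0%). At an unadjusted p under 0.05 there were 8 P450 probes against 2.36% of all, and 6 of them were the Cyp2b2, Cyp2b12 and Cyp2b15 probes. For A_44_P311322 of Cyp2b2 nostril A minus nostril B came to -0.37, -0.50 and -0.51 in males 2, 5 and 6 and to 0.15, -0.17, -0.20 and 0.10 in females 3, 4, 7 and 8. The interaction was 0.43 (SE 0.11, adjusted p = 1.00 in limma). In all 6 probes nostril A was lower in each of the 3 males, while the females went both ways. Nostrils A and B of female 3 lay on slides 1 and 2, so her difference also holds one between slides, and all other pairs shared a slide.

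**Figure D5:**
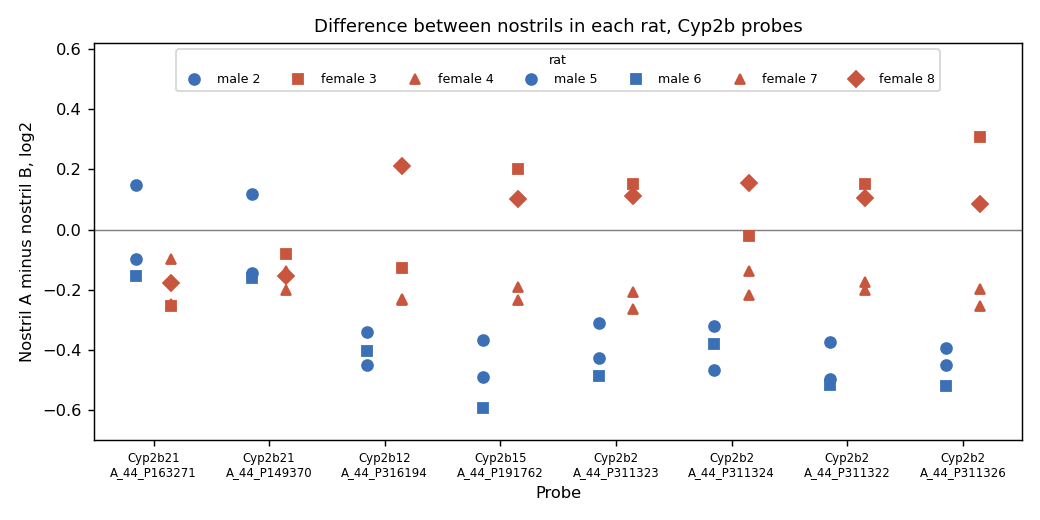
Nostril A minus nostril B on the log2 scale for the 8 expressed Cyp2b probes, each point a rat, with males in blue and females in red. The males lie below 0 for the Cyp2b12, Cyp2b15 and Cyp2b2 probes, at -0.59 to -0.31, and the females lie on both sides of it.

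Transcripts of the proteins that serve the P450s were detected throughout. All 21 probes for 16 electron transfer and heme genes were expressed, among them P450 reductase (Por) at 8.83 to 9.17 over the rats and Alas1, the first enzyme of heme synthesis, at 10.30 ± 0.15 in males and 10.50 ± 0.08 in females. Cytochrome b5 (Cyb5) stood at 8.92 ± 0.06 and 9.14 ± 0.12, Fdx1, the mitochondrial ferredoxin, at 6.19 ± 0.07 and 6.42 ± 0.07, and Fdxr, its reductase, at 5.77 ± 0.37 and 5.93 ± 0.13 (SD, n = 4 each). None of the 21 passed 1% or 5% by sex. At an unadjusted p under 0.05 there were 10 of 21, against 17.1% of all probes, with 9 higher in females, among them Fdx1 (difference 0.22, SE 0.06) and Cyb5 (0.22, SE 0.07), and the list's median difference was 0.14 beside 0.01 over all probes. The Cyb5r3 probes differed by 0.14 each (SE 0.09 each), and Por by 0.06 (SE 0.08).

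Of 38 probes for 29 transcription factors and their partners that regulate P450 genes, 26 were expressed. The xenobiotic receptors were mostly at the limit of detection. Nr1i3 (CAR), the receptor through which phenobarbital acts on Cyp2b genes, was detected on no array by either probe, Nr1i2 (PXR) was detected on 4 arrays, Ahr on 2 and its partner Arnt on 8. Hnf4a was detected on 7 arrays by 1 of its 2 probes. Arnt stood at -1.89 ± 0.07 in males and -2.27 ± 0.23 in females (difference -0.38, SE 0.14, adjusted p = 0.229 in limma). Nfe2l2, the regulator of antioxidant and conjugating enzymes, had the smallest p of the list by sex, at 6.20 ± 0.17 and 6.64 ± 0.10 (difference 0.44, SE 0.09, adjusted p = 0.0982). With slide as a block these differences were -0.85 for Arnt and 0.19 for Nfe2l2, and that of Arnt was -0.06 after normexp. None of the 28 regulator probes tested passed 1% by sex, and 9 had an unadjusted p under 0.05, against 17.1% of all probes, of which 2 were higher in females.

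Among rats of 1 sex 3 of these 49 probes passed 1%, against 2.79% of all probes. Fech, which inserts iron into heme, was read at 4.17, 3.32, 4.22 and 4.93 in males 1, 2, 5 and 6 and at 3.16, 4.46, 3.25 and 3.43 in females 3, 4, 7 and 8 (F = 45.2, adjusted p = 0.00045 in limma). Hbb, a globin of red cells, read 8.51, 6.89, 8.67 and 9.13 in those males and 6.18, 8.62, 5.84 and 6.91 in those females, so that the rats with high Fech were those with high Hbb. A Cyb5b probe (F = 14.3, adjusted p = 0.00837) and a Bcl6 probe (F = 16.1, adjusted p = 0.00632) were the others, and the count past 1% was 1 without male 2, female 4, male 5 or female 7. None of the 49 passed 1% by nostril. At an unadjusted p under 0.05 there were 5 of the 21 electron transfer probes (Fdx1 and the probes of Cyb5b and Cyb5r1), all lower in nostril A by differences of -0.13 to -0.10, and 0 of the 28 regulator probes, against 5.89% of all probes. The part of blood in Fech was not tested.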

How the data were processed

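Per the labels, total RNA of each nostril was labelled with Cy3 and hybridized alone to an Agilent rat array. The authors extracted the deposited intensity values with Feature Extraction 9.5.1.1, background-subtracted and not scaled between arrays, and also deposited a ratio table, in which each signal is divided by its array median and its probe median (99.933% of 20463 probes within 2%). The ratio table was used as an alternative only. The P450 family, the gene lists and the tests were chosen with earlier results of these data known, while a probe entered the family by its name.

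Flagged spots (61 to 175 an array) were left out, spots of a probe averaged, signals divided by the array median, floored at 0.1 of it and put on the log2 scale. Probes well above background on at least 7 arrays were tested (41 of the P450 probes, 40 in fits on single arrays, where 1 Cyp2j3 probe lacked a value) with limma 3.58.1 (lmFit, eBayes with trend) in R 4.3.3. Tests were two-sided, and p-values were adjusted by the Benjamini-Hochberg method over all probes. Nostrils were averaged per rat for sex. Named were probes past 1%, the 5 with the smallest p per comparison, and a list of known P450s and partners. Other genes, such as Nfe2l2, were named after their values were seen. Fits were tested on simulated data. Sequences are those of the array annotation (build rn3) and RefSeq (GRCr8). Tables and plots used Python 3.11.15, pandas 2.3.3 and matplotlib 3.10.9. Alternatives were other scalings, background correction, filters, floors, slide blocks, units of replication and each rat left out.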

Additional observations from a re-analysis of the deposited data

Results flagged for a closer look

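Of 82 groups of 4 rats (41 P450 probes in 2 sexes) 6 had a rat far from the other 3, by Dixon's test, which chance gives in about 1 in 20 groups. Among females, Cyp1a2 (A_44_P142025) read 6.87 in rat 4 against 6.64 to 6.66 in the others, Cyp27b1 read -0.60 in rat 4 against -0.97 to -0.92, and Cyp2u1 read -1.57 in rat 4 against -1.36 to -1.34. Cyp2d4 (A_44_P431092) read 1.24 in female 7 against 1.52 to 1.56, and Cyp3a9 read 7.05 in female 8 against 7.37 to 7.42. Among males, Cyp2d4 (A_44_P372061) read 2.40 in rat 1, measured by a single array, against 2.80 to 2.85.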

How the results depend on the processing

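By sex no P450 probe passed 1% in any alternative run, other scalings and single rats left out included, except with the 15 arrays taken as independent, where 3 did (Cyp2g1, Cyp1a2 and Cyp7b1). Nostrils of a rat are then counted as separate animals. By nostril and for the interaction the count was 0 in every alternative, the fit without rat as a replicate block among them. Among rats the 1 probe at 1% became 11 at 5%, 0 with slide as a block, 0 with normexp background correction and, in an alternative chosen after seeing the data, 0 among the rats of slides 1 and 2 alone and 0 among those of slides 3 and 4 alone, which have fewer samples. It ranged from 1 to 3 with a rat left out.

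The electron transfer and regulator probes, with alternatives chosen after seeing the data, went by sex from 0 to 1 with slide as a block and to 4 with the arrays as independent. Among rats they went from 3 to 0 with slide as a block, with normexp and within either pair of slides, to 1 with the ratio table or no filter, and ranged from 1 to 3 with a rat left out. Of 661 recomputed values of the single probes whose differences or F the text prints, 620 kept direction and side of the 1% threshold. The rest were classed as weaker (30), stronger (8) or reversed (3). Reversed were Cyp27b1 by sex to -0.14 with slide as a block, Cyp3a9 by sex to -0.0274 with normexp and Cyp2b21 (A_44_P149370) by nostril to 0.0192 with normexp. Other P450 differences near 0, not printed one by one, can change sign as well. The cause of these changes was not tested. Detection of 39 probes became 48 with the laxer call of positive and significant signal and 37 when all 15 arrays were required. Dim probes such as Cyp2c7 and Cyp2c13 lie near background, and 4 rats a sex limit the precision.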

Other observations

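Some P450 probes were well above background on few arrays and entered no comparison. In male 6, the array of nostril A alone detected Cyp11b2, the aldosterone synthase, at -0.10, and Cyp2c65 at -0.72, while no other array detected either. Cyp2c23, an epoxygenase of arachidonic acid, was detected on 3 male arrays and no female array. Cyp2c37 and Cyp4a1 were each detected on 3 female arrays and no male array. The highest values of these probes were -1.71, -1.55 and -2.28 in that order. By the laxer call, however, Cyp2c37 gave a signal on all 15 arrays, Cyp4a1 on 11 and Cyp2c23 on 5. The share of all probes detected in 1 sex alone was not computed. Cyp17a1 was detected on 1 array of each sex, with a highest value of -1.18, and on 12 arrays by the laxer call. These probes missed the detection call on all other arrays, and no test was run on them.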
